A study of Mus musculus with 5 samples.

Results

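The clustered protocadherins were examined in the hippocampus of mice lacking *Hdac1*, which encodes a class I histone deacetylase that removes acetyl groups from histones. Members were taken by symbol, as every listed Pcdha, Pcdhb, Pcdhga, Pcdhgb, Pcdhac and Pcdhgc gene with a number. This gave 59 of the 23361 genes listed in each library, with 15 in the alpha cluster, 22 in the beta cluster and 22 in the gamma cluster. Bulk RNA-seq had been made from hippocampal tissue at 3 months of age from 2 control mice (*Hdac1* f/f) and from 3 conditional knockout mice (*Hdac1* f/f, Nestin-Cre), called *Hdac1* cKO. All 5 animals therefore carried the floxed allele, and the groups differed by the Nestin-Cre transgene. Nestin-Cre acts in neural progenitors, so the deletion reaches neurons and astrocytes, while microglia, which arise from another lineage, keep the gene. A Nestin-Cre control without the floxed allele was not analysed here. Values are FPKM, fragment counts corrected for transcript length and for the depth of the library. The comparison asks whether the level of any protocadherin, or of a whole cluster, differed between the genotypes.

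Clustered protocadherins are cadherin-like adhesion proteins of the neuronal surface. Each neuron transcribes a small set of them from alternative promoters, the proteins pair only with the same isoforms on a facing membrane, and this code lets the branches of a neuron tell themselves from those of other neurons. The variable alpha, beta, gamma A and gamma B isoforms are chosen stochastically, with the insulator protein CTCF and cohesin looping a distant enhancer to the chosen promoter. The C-type isoforms of the alpha and gamma clusters are expressed more uniformly, and *Pcdhgc4* is known for its role in neuronal survival.

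The 3 clusters lie in tandem on the plus strand of mouse chromosome 18 (mm9), at chr18:37089939-37347311 for alpha, chr18:37424652-37681073 for beta and chr18:37833989-38001527 for gamma. In the alpha and gamma clusters each transcript joins its own large variable exon to constant exons at the end of the cluster. In the GENCODE vM1 annotation of this build, 9 of 10 transcripts in the alpha record shared 3 exons with 459 nt, between 8.47% and 16.2% of the transcript. In the gamma record 9 of 10 transcripts shared 3 exons with 2091 nt, between 41.2% and 44.6% of the transcript. Only bases common to all 9 transcripts of a record were counted, so pairs that end alike can share more than this. Fragments from these constant exons fit most transcripts of the cluster alike, so an alpha or gamma member's FPKM is partly an assignment by the quantification software. The beta genes have no constant exons. Of these 22 genes 18 are annotated with 1 exon, and their transcripts span 2340 to 7131 nt. The closest pairs share from 63.9% to 89.2% of aligned bases, and no alignment of at least 200 nt reached 95% identity as a whole. Stretches within these alignments were not searched, so fragments that fit more than 1 beta gene are not excluded. The comparison of bases covered the beta genes with a protein-coding transcript in the annotation, which leaves out *Pcdhb20*.

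Libraries held an estimated 5140000 to 6770000 fragments, with the fewest in cKO 2. The low FPKM values fell on shared steps within control 1 and cKO 1, and within control 2, cKO 2 and cKO 3, and these sets of libraries cross the genotypes. Differences within each set are therefore given beside the pooled ones. The targeted gene was at 8.95 and 13.1 FPKM in control 1 and 2 against 1.95, 3.12 and 3.37 FPKM in cKO 1, 2 and 3, so the groups did not overlap and some *Hdac1* signal remained in each cKO library. The limma test was run on log2(FPKM + 1) for the 12740 genes whose mean reached 1 FPKM. Among them 84 (0.659%) reached a fold change of 1.5 at an unadjusted p under 0.05, and 51 of these were higher in cKO. The p-values measure the spread between these animals only, and with 2 controls a single control weighs heavily.

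Of the 59 protocadherins 45 could be tested, namely 21 of 22 beta genes, all 22 gamma genes, and *Pcdha12* and *Pcdhac2* of the alpha cluster. The 14 others, 13 alpha genes and *Pcdhb1*, had a mean under 1 FPKM. Of these 45, the number that reached a fold change of 1.5 with an unadjusted limma p under 0.05 was 0, against 0.659% of all tested genes. The number under an unadjusted p of 0.05 was also 0, against 4.36% of all tested genes, and 0 had an adjusted p under 0.05, against 0.00785%. The smallest unadjusted p was 0.0970, for *Pcdhgb2*, and the adjusted p-values from limma began at 0.955. Leaving out control 1 put 1 of the 45 past the fold change and p (*Pcdhb15*), beside 1.19% of all tested genes in that fit, and leaving out control 2 put 5 past them (*Pcdha12*, *Pcdhb2*, *Pcdhb6*, *Pcdhb7* and *Pcdhb10*), beside 1.81%. In these fits 1 control remains, so the spread comes from the 3 cKO libraries and the lone control is assumed to vary like them. Of these, *Pcdhb6* and *Pcdhb15* were named after their values were seen.

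The clusters differed in level far more than the genotypes did. The summed FPKM of the gamma cluster was 126.9 and 134.0 in control 1 and 2, beside 126.9, 114.3 and 133.5 in cKO 1, 2 and 3. The beta cluster summed to 35.7 and 48.8 FPKM in control 1 and 2 against 46.5, 46.1 and 54.1 FPKM in cKO 1, 2 and 3. The alpha cluster summed to 16.5 and 21.5 FPKM in control 1 and 2 against 17.8, 19.2 and 20.3 FPKM in cKO 1, 2 and 3. In each of the 3 clusters the control and cKO libraries overlapped. The gamma cluster took 63.6% to 70.9% of the summed protocadherin FPKM in a library and the alpha cluster 9.20% to 10.7%, with the groups overlapping in both shares. The beta share was 19.9% and 23.9% in control 1 and 2 and 24.3%, 25.7% and 26.0% in cKO 1, 2 and 3, without overlap and not tested.

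**Figure D1:**
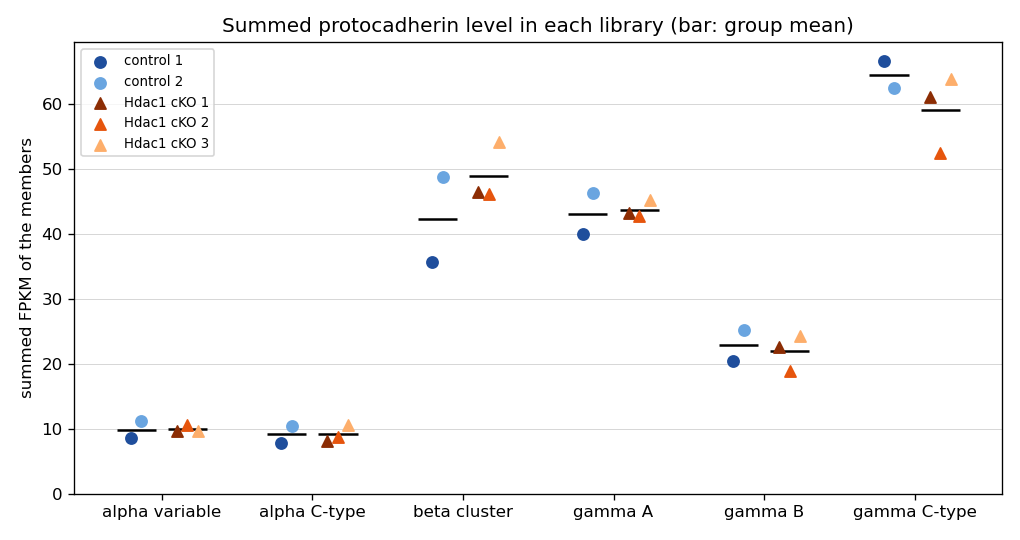
Summed FPKM (linear axis) of the members of each subgroup in the 2 control (circles) and 3 *Hdac1* cKO (triangles) libraries, with the group mean as a bar. The groups overlap in every subgroup, and control 1 is lowest in the beta cluster at 35.7 FPKM.

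The log2 difference of the summed FPKM, cKO minus control, was 0.02 for the alpha cluster (-0.05 after rescaling to a common total), 0.23 for the beta cluster and -0.07 for the gamma cluster. These sums were described without a test. Within the set of control 1 and cKO 1 the differences were 0.12 for alpha, 0.38 for beta and -0.001 for gamma. Within the set of control 2, cKO 2 and cKO 3 they were -0.12, 0.03 and -0.12. The alpha difference changed sign between the sets, and the beta difference stood almost wholly in the set that held control 1.

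The C-type isoforms *Pcdhac2*, *Pcdhgc3* and *Pcdhgc5* were the most abundant members of their clusters. *Pcdhgc3* was the highest protocadherin in every library, at 41.7 and 37.1 FPKM in control 1 and 2 against 39.3, 29.3 and 37.9 FPKM in cKO 1, 2 and 3. Its lowest value belonged to cKO 2, the shallowest library, and the groups overlapped (log2 fold change -0.16, SE 0.14, and -0.03 without cKO 2). *Pcdhgc5* followed at 20.6 and 22.7 FPKM against 19.0, 20.8 and 22.8 FPKM, with a fitted log2 difference of -0.06 (SE 0.12) and a 95% interval from -0.32 to 0.21. *Pcdhac2* was at 7.29 and 9.39 FPKM in control 1 and 2 against 7.34, 7.97 and 9.48 FPKM in cKO 1, 2 and 3, with a log2 fold change of -0.01 (SE 0.15) and an interval from -0.36 to 0.34. The interval for *Pcdhgc3* ran from -0.48 to 0.17. In each of these isoforms the interval of the difference stayed inside a fold change of 1.5 in either direction.

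*Pcdhgc4*, the isoform tied to neuronal survival, was the least abundant gamma C-type member. It stood at 4.25 and 2.59 FPKM in control 1 and 2 against 2.78, 2.48 and 3.29 FPKM in cKO 1, 2 and 3. Control 1 was highest and the other control lay among the cKO libraries, so the log2 fold change of -0.18 (SE 0.19) was within the spread of the groups. *Pcdhac1* was at 0.561 and 1.01 FPKM against 0.784, 0.702 and 1.09 FPKM and was too low to be tested. Together the C-type members made up 52.5% and 46.6% of the gamma FPKM in control 1 and 2, beside 48.1%, 46.0% and 47.9% in cKO 1, 2 and 3. In the alpha cluster their share came to 47.7% and 48.3% in control 1 and 2, beside 45.5%, 45.1% and 52.2% in cKO 1, 2 and 3, nearly all of it from *Pcdhac2*.

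**Figure D2:**
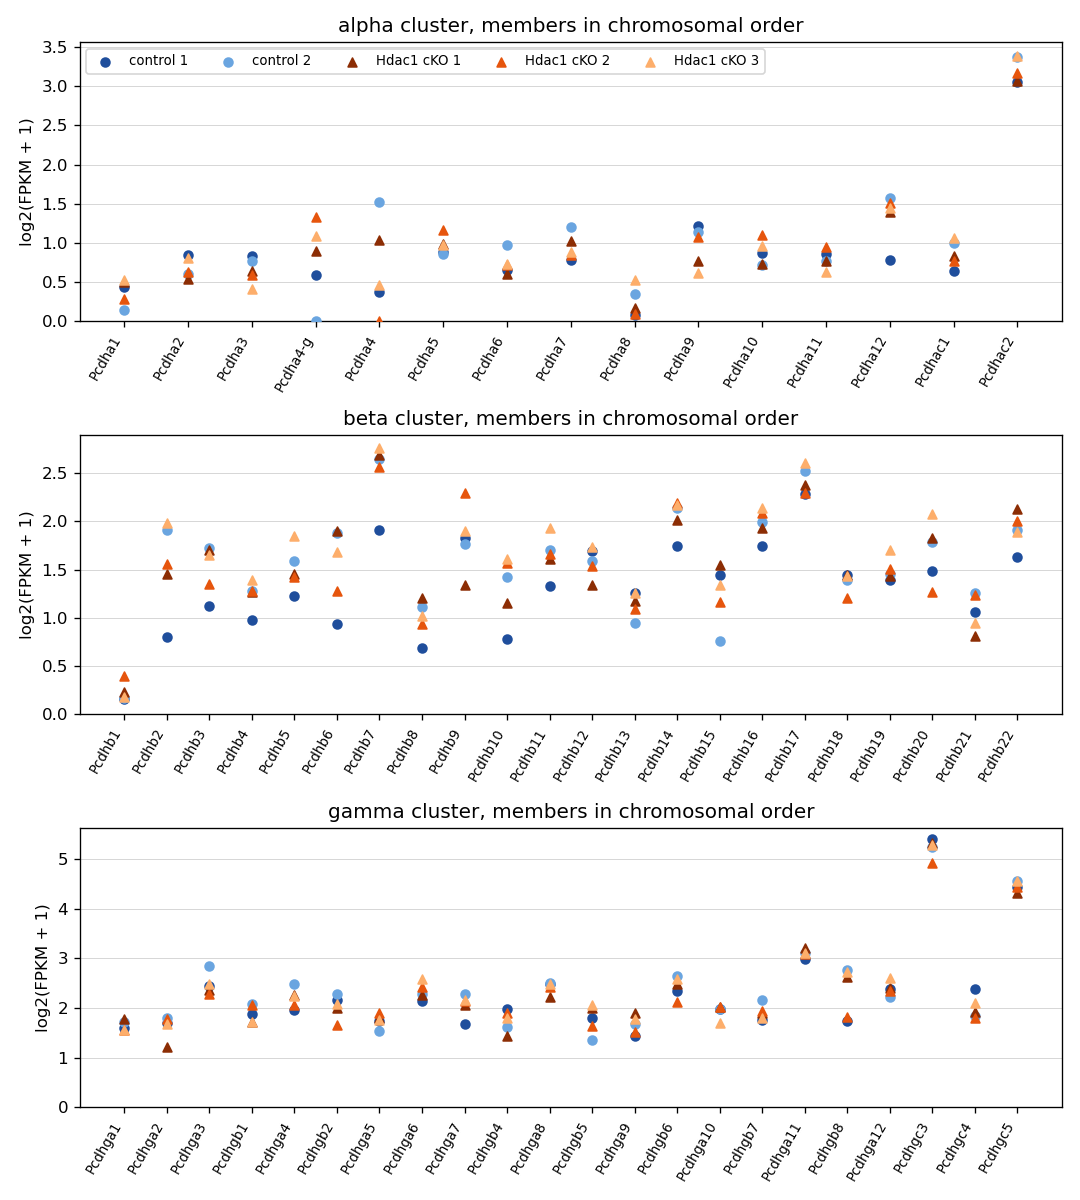
Level of each member as log2(FPKM + 1), in the order of the genes along the chromosome, with controls as circles and *Hdac1* cKO libraries as triangles. *Pcdhac2*, *Pcdhgc3* and *Pcdhgc5* at the ends of their clusters stand above the variable isoforms of their cluster in all 5 libraries.

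The variable alpha isoforms were present at low levels. The 13 listed genes had mean levels from 0.194 FPKM for *Pcdha8* to 1.58 FPKM for *Pcdha12*, with a median of 0.740 FPKM. *Pcdha12* was at 0.719 and 1.99 FPKM in control 1 and 2 against 1.64, 1.86 and 1.72 FPKM in cKO 1, 2 and 3. Only control 1 was low, and the cKO libraries lay just under control 2 (log2 fold change 0.27, SE 0.23, and -0.13 without control 1). The next in level were *Pcdha9*, at 1.32 and 1.20 FPKM against 0.698, 1.10 and 0.536 FPKM, *Pcdha5*, at 0.851 and 0.821 FPKM against 0.988, 1.24 and 0.958 FPKM, and *Pcdha7*, at 0.720 and 1.31 FPKM against 1.03, 0.797 and 0.842 FPKM. *Pcdha9* was lower and *Pcdha5* higher in all 3 cKO libraries, and *Pcdha3* was also lower (0.780 and 0.705 FPKM against 0.567, 0.504 and 0.335 FPKM, named after its values were seen). All were under the level for a test, and among tested genes 9.41% were lower and 11.0% higher without overlap. Fitted without the filter on level, 7 of the 15 alpha members were above 0 and 8 below it.

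*Pcdha4* and *Pcdha4-g* were singled out after their values were seen, since they share a variable exon. *Pcdha4* uses the alpha constant exons, and *Pcdha4-g* is a fusion record that RefSeq lists under the name *Gm37013* and that runs on into the gamma cluster. *Pcdha4-g* was listed at 0.511 and 0 FPKM in control 1 and 2 against 0.857, 1.51 and 1.13 FPKM in cKO 1, 2 and 3, higher in all 3 cKO libraries. Fitted without the filter on level it had a log2 fold change of 0.81 with an unadjusted p of 0.00721 (adjusted p = 0.953) from limma, the only one of the 59 members past the threshold in that fit, beside 0.582% of all genes fitted. The groups overlapped in *Pcdha4*, with 0.298 and 1.88 FPKM in control 1 and 2 against 1.06, 0 and 0.381 FPKM in cKO 1, 2 and 3. Where *Pcdha4-g* was at 0, in control 2, *Pcdha4* held all of the signal, and in cKO 2 the roles were exchanged. The sum of both records was 0.808 and 1.88 FPKM in control 1 and 2 against 1.92, 1.51 and 1.51 FPKM in cKO 1, 2 and 3, and on this sum the groups overlapped.

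**Figure D3:**
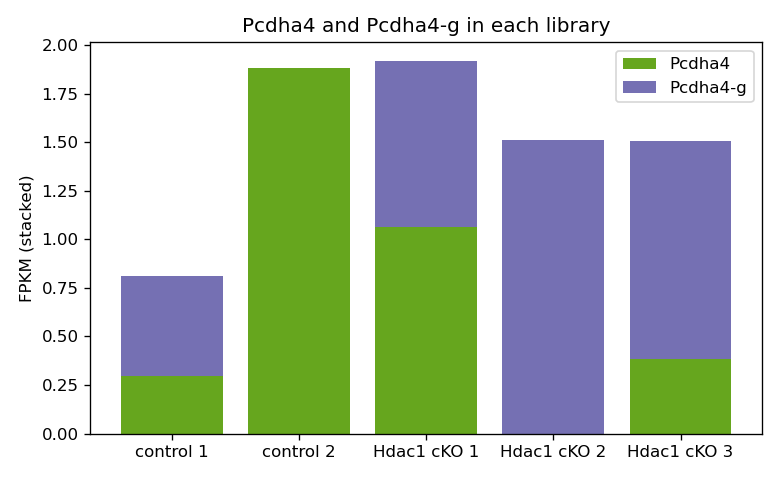
FPKM of *Pcdha4* and *Pcdha4-g* stacked in each of the 5 libraries. Control 2 is listed with *Pcdha4* alone and cKO 2 with *Pcdha4-g* alone, while the sums of the cKO libraries, from 1.51 to 1.92 FPKM, lie between and just above the control sums of 0.808 and 1.88 FPKM.

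In the beta cluster most fitted differences were above 0, though none passed the test. Of the 21 tested genes 18 were higher and 3 lower in cKO, while 53.7% of all tested genes were above 0. The median log2 fold change of the beta genes was 0.16, beside 0.02 over all tested genes. The size of this tilt depended on which control was kept. Without control 1 the counts were 10 higher and 11 lower, with a median of -0.01, and without control 2 they were 16 and 5, with a median of 0.34. Within the set of control 1 and cKO 1, 17 of 21 beta genes were higher in cKO, and within the other set 13 of 21 were.

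Control 1 held the lowest of the 5 values in 15 of the 22 beta genes, 14 of them among the 21 tested, while it was lowest in 27.7% of all tested genes. Against control 2 it was lower in 17 of 22 beta genes, by a median of -0.29 on the log2 scale, beside -0.05 over all tested genes. cKO 3 lay above control 2 in 17 of 22 beta genes, by a median of 0.11, while cKO 1 and cKO 2 had medians of -0.02 and -0.03. In the gamma cluster control 1 was lowest in 7 of 22 genes.

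**Figure D4:**
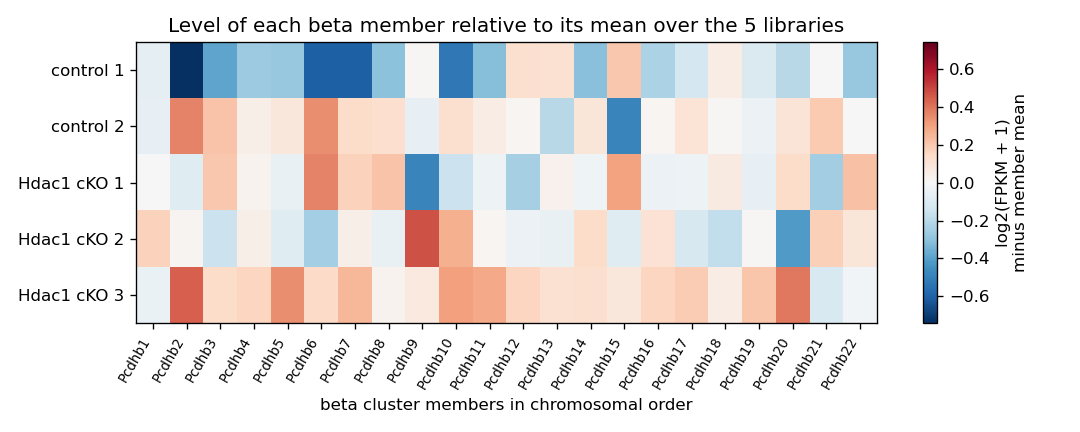
Each of the 22 beta genes, in the order along the chromosome, as its log2(FPKM + 1) in a library minus its mean over the 5 libraries (red above, blue below the mean). The row of control 1 is mostly below the mean, most of all at *Pcdhb2*, *Pcdhb6*, *Pcdhb7* and *Pcdhb10*.

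*Pcdhb7* (chr18:37501356-37504861) was the most abundant beta gene and had the largest fitted difference. It measured 2.77 and 5.28 FPKM in control 1 and 2 against 5.44, 4.90 and 5.79 FPKM in cKO 1, 2 and 3. Control 2 lay among the cKO libraries and control 1 far below them, giving a log2 fold change of 0.39 (SE 0.21, limma adjusted p = 0.955). The sets gave 0.77 and 0.01. The fitted value fell to 0.02 without control 1 and reached 0.76 without control 2, with an adjusted p of 0.859.

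*Pcdhb10* and *Pcdhb2* had the same form. *Pcdhb10* (chr18:37571328-37574168) was at 0.719 and 1.69 FPKM against 1.22, 1.97 and 2.06 FPKM (log2 fold change 0.34, SE 0.24), with 0.37 and 0.17 within the sets. *Pcdhb2* (chr18:37454494-37457267) was at 0.747 and 2.76 FPKM against 1.74, 1.95 and 2.96 FPKM (log2 fold change 0.31, SE 0.31), with 0.65 and -0.14 within the sets. In both genes control 1 was lowest and control 2 stood above at least 1 cKO library. Without control 2 their log2 fold changes were 0.66 and 0.86 (limma adjusted p = 0.859 for both), and without control 1 they were 0.02 and -0.24. The interval for *Pcdhb2* ran from -0.41 to 1.03, the highest upper bound among the tested members.

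The other abundant beta genes had smaller fitted differences. *Pcdhb17* (chr18:37644675-37647943) was at 3.89 and 4.73 FPKM in control 1 and 2 against 4.20, 3.93 and 5.08 FPKM in cKO 1, 2 and 3, a log2 fold change of 0.02 (SE 0.15) that fell below 0 when the libraries were rescaled to a common total. *Pcdhb14* was at 2.34 and 3.41 FPKM against 3.06, 3.56 and 3.50 FPKM (0.19, SE 0.16). *Pcdhb16* was at 2.35 and 2.99 FPKM against 2.83, 3.25 and 3.41 FPKM (0.18, SE 0.15), and *Pcdhb22* at 2.10 and 2.77 FPKM against 3.38, 3.01 and 2.72 FPKM (0.24, SE 0.16). In the last 3 genes control 1 was again the lowest library and control 2 lay within the cKO range.

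The 3 beta genes with a fitted difference below 0 were *Pcdhb21*, *Pcdhb12* and *Pcdhb18*. *Pcdhb21* was at 1.09 and 1.39 FPKM in control 1 and 2 against 0.751, 1.36 and 0.934 FPKM in cKO 1, 2 and 3 (log2 fold change -0.16, SE 0.19). *Pcdhb12* was at 2.24 and 2.02 FPKM against 1.53, 1.90 and 2.33 FPKM (-0.11, SE 0.17, and -0.009 without cKO 1), and *Pcdhb18* at 1.72 and 1.62 FPKM against 1.73, 1.31 and 1.71 FPKM (-0.05, SE 0.16). Control and cKO libraries overlapped in each of them, as they did in all 21 tested beta genes. *Pcdhb1*, at the start of the cluster, had 0.115 and 0.123 FPKM in control 1 and 2 against 0.173, 0.317 and 0.130 FPKM in cKO 1, 2 and 3. It was higher without overlap but not tested, while 11.0% of all tested genes were higher in this way. These values stood for about 2 fragments in each control and in cKO 3, 3 in cKO 1 and 4 in cKO 2.

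In the gamma cluster 8 genes were above and 14 below 0, with a median log2 fold change of -0.06. By subgroup, 6 of 12 gamma A, 5 of 7 gamma B and all 3 gamma C-type genes were below 0. Leaving out cKO 2, the shallowest library, gave 11 above and 11 below 0, and leaving out control 2 turned the balance to 13 above and 9 below 0, with a median of 0.04. Within the set of control 1 and cKO 1, 13 of 22 gamma genes were higher in cKO, and within the other set 6 of 22 were. The summed gamma A level was 39.9 and 46.3 FPKM in control 1 and 2 against 43.2, 42.8 and 45.3 FPKM in cKO 1, 2 and 3, with the cKO libraries inside the control range. The summed gamma B level was 20.4 and 25.3 FPKM against 22.6, 18.9 and 24.3 FPKM, and cKO 2 was lowest. The gamma C-type level was 66.6 and 62.5 FPKM against 61.1, 52.5 and 64.0 FPKM, again lowest in cKO 2.

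*Pcdhgb2* had the lowest fitted log2 fold change of the 45 tested members. It measured 3.48 and 3.87 FPKM in control 1 and 2 against 3.02, 2.15 and 3.22 FPKM in cKO 1, 2 and 3, so every cKO library lay below both controls (log2 fold change -0.31, SE 0.17, limma adjusted p = 0.955). The difference was -0.16 and -0.42 within the sets. *Pcdhga8*, named after its values were seen, was the other tested member with no overlap in this direction, at 4.63 and 4.68 FPKM against 3.70, 4.35 and 4.56 FPKM. Lower values without overlap were thus found in 2 of the 45 tested members, beside 9.41% of all tested genes. *Pcdhga5*, at 2.32 and 1.89 FPKM against 2.50, 2.75 and 2.36 FPKM (log2 fold change 0.19, SE 0.15), was the 1 tested member higher without overlap, beside 11.0% of all tested genes.

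Among the other gamma A isoforms, *Pcdhga11* was the most abundant at 6.92 and 7.65 FPKM in control 1 and 2 against 8.30, 7.50 and 7.59 FPKM in cKO 1, 2 and 3. Its log2 fold change was 0.09 (SE 0.12), and its interval from -0.18 to 0.36 stayed inside a fold change of 1.5. *Pcdhga3* was at 4.46 and 6.20 FPKM against 4.14, 3.85 and 4.63 FPKM (-0.27, SE 0.16). Control 2 was highest and control 1 lay among the cKO libraries, and without control 2 the fitted value was -0.07. *Pcdhga2* was at 2.23 and 2.46 FPKM against 1.32, 2.46 and 2.19 FPKM (-0.18, SE 0.20), with cKO 1 alone low and a value of -0.01 without it. *Pcdhga6* was at 3.41 and 3.84 FPKM against 3.77, 4.38 and 5.03 FPKM (0.22, SE 0.15), with cKO 1 between the controls.

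Among the gamma B isoforms, *Pcdhgb5* had the highest fitted log2 fold change of the cluster with all 5 libraries. It measured 2.50 and 1.56 FPKM in control 1 and 2 against 3.00, 2.10 and 3.18 FPKM in cKO 1, 2 and 3, with control 1 above cKO 2 (log2 fold change 0.32, SE 0.20). Without control 2 it fitted at 0.09 and without control 1 at 0.54. *Pcdhgb6* was at 4.09 and 5.25 FPKM against 4.61, 3.37 and 5.04 FPKM (-0.09, SE 0.18), and the groups overlapped. *Pcdhgb8*, which RefSeq annotates as a transcribed pseudogene, was chosen after its values were seen because it varied most within the groups. It stood at 2.33 and 5.77 FPKM in control 1 and 2 against 5.21, 2.52 and 5.58 FPKM in cKO 1, 2 and 3. Control 1 and cKO 2 were thus the low libraries and the 3 others stood above 5 FPKM. The log2 fold change of 0.14 had a standard error of 0.35, and it was -0.37 without control 1 and 0.66 without control 2.

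**Figure D5:**
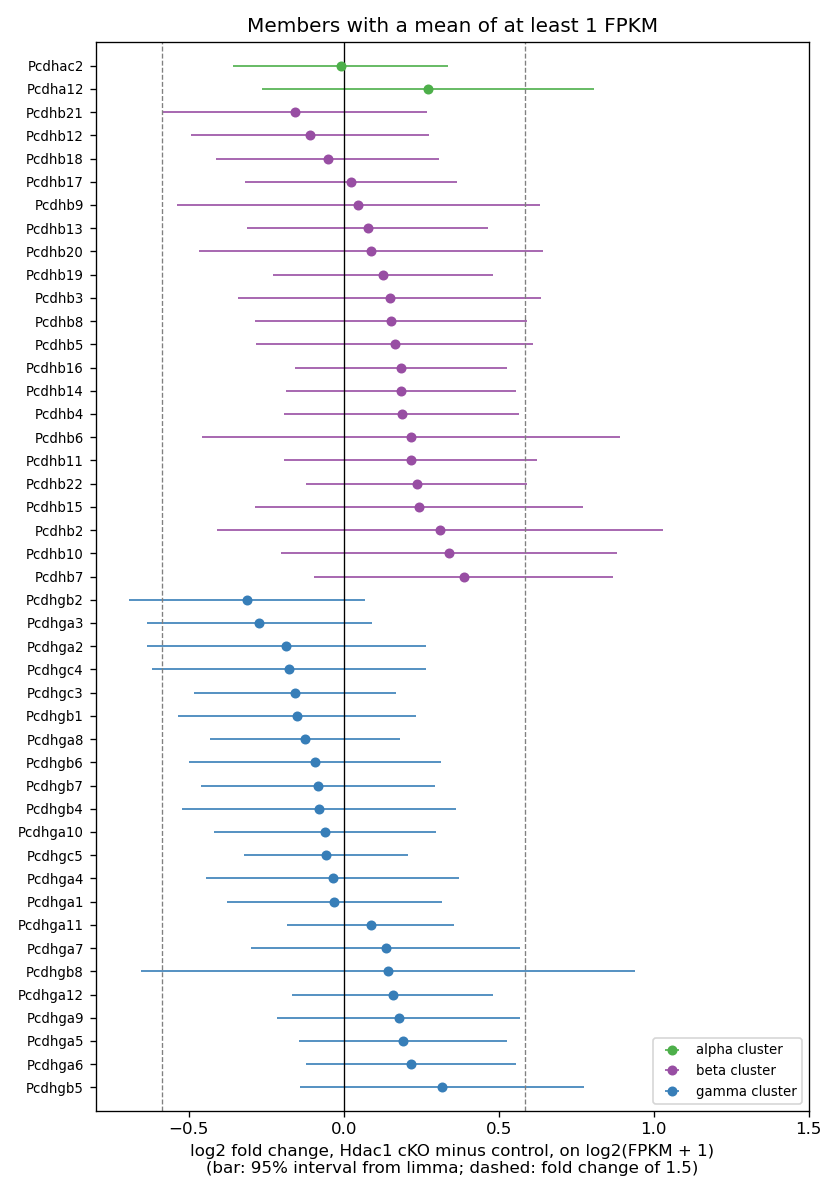
Log2 fold change (cKO minus control, on log2(FPKM + 1)) of the 45 tested members with the 95% interval from limma, ordered within each cluster. Every interval includes 0, and 25 of 45 stay between the dashed lines at a fold change of 1.5 on that scale.

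The precision of the comparison can be read from the intervals. On log2(FPKM + 1), 25 of the 45 tested members had a 95% interval that stayed inside a fold change of 1.5 in either direction. These were 8 of 21 in the beta cluster, 16 of 22 in the gamma cluster and *Pcdhac2* in the alpha cluster. For the other 20 the interval reached past that size. This scale understates changes of low genes, so at a few FPKM an interval counted as inside can reach past 1.5 in FPKM itself. In all 45 the fitted value moved by over 1.5 times when some library was left out. A beta gene held a median of about 30 to 52 fragments per library, with the lowest median in cKO 2 and 36 in control 1, so a single beta value carries a large counting error.

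Rank correlations of member levels between libraries reached lower among the variable alpha genes than in the beta and gamma clusters, though the ranges overlapped. Across the 22 beta genes Spearman's rho of the FPKM between any pair of libraries was 0.62 to 0.93, and 0.62 to 0.71 for pairs with control 1. Across the 19 gamma A and B genes it was 0.58 to 0.91, and 0.58 to 0.71 for pairs with control 1. Across 12 variable alpha genes, without the fusion record, it was 0.06 to 0.86. Among these alpha genes it was 0.06 to 0.71 for pairs with control 1 and 0.27 to 0.86 for the other pairs. These values describe genes within libraries of one tissue, share the same gene lengths, and carry no test. The highest mean level was 4.81 times the lowest among the 21 tested beta genes, 28.2 times with *Pcdhb1* included, and 3.57 times among the gamma A and B genes. As a description, rho between mean level and position along the cluster was 0.61 over the 12 variable alpha genes, 0.41 over the 19 gamma A and B genes and 0.21 over the 22 beta genes.

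Genes that act on the clusters were compared in the same fit. Of 17 listed regulators, which include *Ctcf*, the cohesin subunits and loaders, the DNA methyltransferases and *Smchd1*, a chromatin repressor, 16 were tested. Of these 8 were above and 8 below 0, the median log2 fold change was 0.01, and 0 had an unadjusted limma p under 0.05. *Ctcf* was at 16.3 and 18.8 FPKM in control 1 and 2 against 15.9, 17.4 and 16.4 FPKM in cKO 1, 2 and 3 (log2 fold change -0.08, SE 0.11). Of 20 listed partners of the proteins, such as the kinases *Ptk2*, *Ptk2b* and *Fyn* and the WAVE complex, 19 were tested, with 9 above and 10 below 0 and a median of -0.002. *Nlgn2*, a synaptic adhesion protein, was the 1 partner with an unadjusted p under 0.05, at 22.3 and 19.8 FPKM against 19.1, 15.9 and 16.2 FPKM (-0.29, adjusted p = 0.955).

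Relatives outside the clusters and neighbours on the chromosome were spread around 0. Of 12 listed non-clustered protocadherins 10 were tested, with 5 above and 5 below 0, a median log2 fold change of -0.02 and 0 under an unadjusted limma p of 0.05. Of 16 other listed genes within 200000 nt of the clusters 13 were tested, with 6 above and 7 below 0, a median of -0.003 and 0 under that p. One of these neighbours is *Hdac3*, another class I deacetylase, at 30.4 and 39.0 FPKM in control 1 and 2 against 34.0, 36.0 and 36.1 FPKM in cKO 1, 2 and 3. Control 1 was lowest in 2 of the 13 tested neighbours and in 3 of the 10 tested non-clustered protocadherins.

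Since the protocadherins are chiefly neuronal, cell type markers were read beside them. In bulk tissue fewer cells of a type and less RNA per cell cannot be told apart. Of 15 neuron markers 14 were below and 1 above 0 in cKO (median log2 fold change -0.13), and *Nefm*, *Stmn2* and *Syn1* had an unadjusted limma p under 0.05, as 4.36% of all tested genes did. Their summed level was 3038 and 3310 FPKM in the controls and 2880 to 3197 FPKM in the cKO libraries, and control 1 was lowest in 1 of the 15. Of 15 astrocyte markers 10 were above and 5 below 0, with *Gfap* (log2 fold change 0.43) and *Aqp4* (0.78, past the fold change of 1.5) under an unadjusted p of 0.05. Their sums were 6877 and 7365 FPKM against 7260 to 7761 FPKM. The part of these markers in the protocadherin values was not tested.

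Markers of the choroid plexus, a tissue that borders the hippocampus, differed widely between libraries. The summed level of the 7 listed was 166.1 and 6.31 FPKM in control 1 and 2 and 74.4, 604.3 and 24.9 FPKM in cKO 1, 2 and 3, and *Folr1*, *Kcnj13* and *Otx2* were listed at 0 in at least 1 library. Both libraries with a low *Pcdhgb8*, control 1 and cKO 2, had the highest sums, of which *Ttr* alone made up 156.7 and 589.2 FPKM. *Folr1* did not follow in control 1, at 0.965 FPKM beside 0.984 FPKM in control 2. Control 1 and cKO 2 were also the 2 lowest libraries for other members, such as *Pcdhb6* and *Pcdhgb6*. The part of the choroid plexus in the protocadherin values was not tested. Sums of 9 oligodendrocyte markers (1604 to 2077 FPKM), 9 microglia markers (225 to 276.3 FPKM) and 5 endothelium markers (63.9 to 86.0 FPKM) overlapped between the genotypes.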

How the data were processed

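Hippocampal total RNA of 2 control and 3 *Hdac1* cKO mice was made into TruSeq libraries. The authors aligned the reads to mm9 with TopHat (which runs Bowtie) and obtained the deposited FPKM values with Cufflinks 2.0.0 and the UCSC annotation. Cufflinks assigns fragments of shared exons to members by maximum likelihood. Whether strand was used is not given in the sources used here. FPKM are not counts, so no count test was run.

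Groups and numbers came from sample titles. Genes whose mean reached 1 FPKM were tested on log2(FPKM + 1) with limma (version 3.58.1, run under R 4.3.3, with moderated variances and a mean-variance trend), and the model held genotype alone. P-values are two-sided and adjusted by Benjamini-Hochberg over all 12740 tested genes. Fold changes on this scale understate changes of low genes. A member is higher or lower without overlap when all cKO libraries lie beyond both controls. The script was tested on simulated data.

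Cluster sums are FPKM totals of all listed members. Sets of libraries were found from repeated ratios among genes under a mean of 0.3 FPKM, and depth from the FPKM of single fragments in transcripts of at least 1000 nt, so it is approximate. No confidence interval was derived from it. Beta transcripts (GENCODE vM1, NCBIM37) were aligned with BLAST 2.17.0. Gene names of RefSeq come from a GRCm38 table. Sequences of the members are not reported here.

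Named members were the C-type genes, the 5 highest mean levels and the 3 highest and lowest fold changes of each cluster, and any member past the threshold. The members and all lists were chosen with earlier results of these data known. Alternatives were a pseudocount of 0.1, no filter, a minimum mean of 5 FPKM, other scalings, the replicate number or the library set as a block, and leaving out each library.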

Additional observations from a re-analysis of the deposited data

How the results depend on the processing

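The count of members past a fold change of 1.5 with an unadjusted limma p under 0.05 stayed at 0 with a pseudocount of 0.1, a minimum mean of 5 FPKM (4 members tested), both rescalings, the replicate block and the library set block. It was 1 of 59 without the filter on level (*Pcdha4-g*), where 103 of 17697 genes (0.582%) passed. Leaving out a library gave 0 to 5, with *Pcdhb15* without control 1, and *Pcdha12*, *Pcdhb2*, *Pcdhb6*, *Pcdhb7* and *Pcdhb10* without control 2 (adjusted p = 0.859 for each of these 5). With 1 control left the spread comes from the cKO libraries alone. Over all tested genes the count was 142 with the pseudocount of 0.1, 43 with the minimum of 5 FPKM, 133 with the replicate block and 92 to 231 on leaving out a library.

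On leaving out a library the log2 difference of the alpha sum ran from -0.172 to 0.212 and that of the beta sum from -0.000286 to 0.451, with the extremes without control 1 and without control 2. The gamma sum ran from -0.115 to -0.00289. The alpha sum was also below 0 when rescaled to a common total (-0.05), which shifted the median of all genes to -0.05. With the replicate block the alpha, beta and gamma sums differed by -0.02, 0.15 and -0.12, and with the library set block by -0.02, 0.18 and -0.07.

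Of the members named by rule, *Pcdhb17* turned to -0.030 at a common total and to -0.065 with the replicate block. Leaving out a library turned the sign in 24 of the 45 tested members, 9 of them among the 23 tested members named by rule, with ranges of -0.17 to 0.15 for *Pcdhac2*, -0.45 to 0.10 for *Pcdhgc4*, -0.12 to 0.01 for *Pcdhgc5*, -0.13 to 0.67 for *Pcdha12*, -0.091 to 0.139 for *Pcdhb17*, -0.014 to 0.385 for *Pcdhb14*, -0.094 to 0.027 for *Pcdhb18*, -0.24 to 0.86 for *Pcdhb2* and -0.240 to 0.056 for *Pcdhgb6*. *Pcdhb6*, *Pcdhb15* and *Pcdhgb8*, named after their values were seen, also turned (-0.26, -0.10 and -0.37 at the lowest, 0.69, 0.59 and 0.66 at the highest). The other 14 kept their sign, with ranges of 0.02 to 0.76 for *Pcdhb7*, 0.02 to 0.66 for *Pcdhb10*, 0.06 to 0.31 for *Pcdhb16*, 0.09 to 0.38 for *Pcdhb22*, -0.28 to -0.06 for *Pcdhb21*, -0.209 to -0.009 for *Pcdhb12*, -0.24 to -0.03 for *Pcdhgc3*, 0.02 to 0.15 for *Pcdhga11*, -0.30 to -0.01 for *Pcdhga2*, -0.47 to -0.07 for *Pcdhga3*, 0.09 to 0.29 for *Pcdhga5*, 0.13 to 0.30 for *Pcdhga6*, -0.39 to -0.18 for *Pcdhgb2* and 0.09 to 0.54 for *Pcdhgb5*. The cause was not tested.

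Same-numbered libraries deviated together from their group means (r = 0.402 and 0.269 over 12740 genes), but each such pair also lies in a library set, and 2 pairs do not establish that the numbers pair the animals. The replicate block changed no member's call.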
